A study of Mus musculus with 6 samples.

Results

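Chemokines are small secreted proteins that steer the movement of leukocytes through G protein-coupled receptors. The CC and CXC classes are named for the spacing of their first cysteines, and most inflammatory members attract monocytes, macrophages, eosinophils or neutrophils. The lens has no blood vessels of its own inside its capsule, although in the newborn mouse it is still wrapped by the hyaloid vessel network, which holds macrophages. The genes described here are 10 chemokine genes: the CC genes Ccl2, Ccl3, Ccl4, Ccl6, Ccl7, Ccl9, Ccl12 and Ccl24 and the CXC genes Cxcl1 and Cxcl12. They were taken by symbol through their Entrez identifiers from a table of 27179 genes, and all 10 were in it.

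RNA came from lenses of B6/FVB mouse pups on postnatal day 1, with 3 libraries of the genotype Gclc KO and 3 of Gclc CON (KO 1 to 3 and CON 1 to 3). The product of Gclc is the catalytic part of the enzyme that starts glutathione synthesis, and the study's title links this pathway to eye development and PAX6. The labels name no Cre driver, no altered exon, no sex, no litter and no number of pups per library. Separate animals are not stated either, and the p-values therefore cover the spread among 6 libraries, which may be technical. Values of a group are given in the order of its libraries 1 to 3 throughout.

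Levels are normalised reads, which are the reads recovered from the deposited values divided by the size factor of the library. A difference is the KO mean minus the CON mean in deposited log2 units, whose scale was stabilised for variance and therefore understates the change of genes with few reads. Calls were made with limma at a Benjamini-Hochberg adjusted p under 0.05. Reads in genes ran from 20361430 in CON 2 to 61219009 in KO 3, so that 3 reads, the most that a count of 0 allows (counting error only), are worth 9.44 normalised reads in CON 2 and 1.59 in KO 3. Gclc itself was at 178, 283 and 173 normalised reads in CON and at 17.9, 72.1 and 58.1 in KO lenses (a log2 difference of -1.01, SE 0.28, adjusted p = 0.0387 with limma). The largest adjusted p of Gclc with 1 library left out was 0.130, without KO 1, and the call was also lost without CON 2 (0.102), KO 2 (0.094) or KO 3 (0.105). It was lost as well in limma over every gene with a read (adjusted p = 0.0752), and in 11 of 18 alternatives in all. All 16 listed lens genes had reads in these libraries, and 12 of the 15 tested were called lower in KO. When every gene with a read was tested, 7 of the 16 were, beside 1.87% of all such genes. Of 11468 genes tested, 793 (6.91%) were called higher in KO and 504 (4.39%) lower. Equal library medians gave 643 higher and 717 lower. Scaling by total reads, with voom, gave 3314 and 85 and moved the median difference of all genes from 0.03 to 0.86.

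Transcripts of the 10 listed chemokine genes were scarce in control lenses, and those of most of them were far more abundant in KO lenses. In 9 of the 10 genes every KO library lay above every CON library, and Cxcl12 was the gene whose groups overlapped. Such a separation was seen in 15.3% of all genes with a read. When every gene with a read was tested with limma, 7 of the 10 were called higher, where 4.66% of 19225 genes were, and 0 lower, where 1.87% were. That count was 2 (Ccl4 and Ccl7) without CON 1, CON 2, CON 3 or KO 2, 4 without KO 3 and 7 without KO 1, where Cxcl1 was called in place of Ccl9. Ccl4 had no reads in CON, so leaving out a CON library could not change its difference. No listed gene had all KO libraries below all CON libraries, as 14.1% of the genes that passed the filter had. The median log2 difference over the 10 genes was 2.78, beside 0.08 over all genes with a read. Under the filter on low values, Ccl3, Cxcl1 and Cxcl12 were not tested, and Ccl2, Ccl4 and Ccl24 passed only through their KO libraries. The differences, SE and adjusted p-values of the 10 genes below are therefore those of the limma test of every gene with a read.

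**Figure D1:**
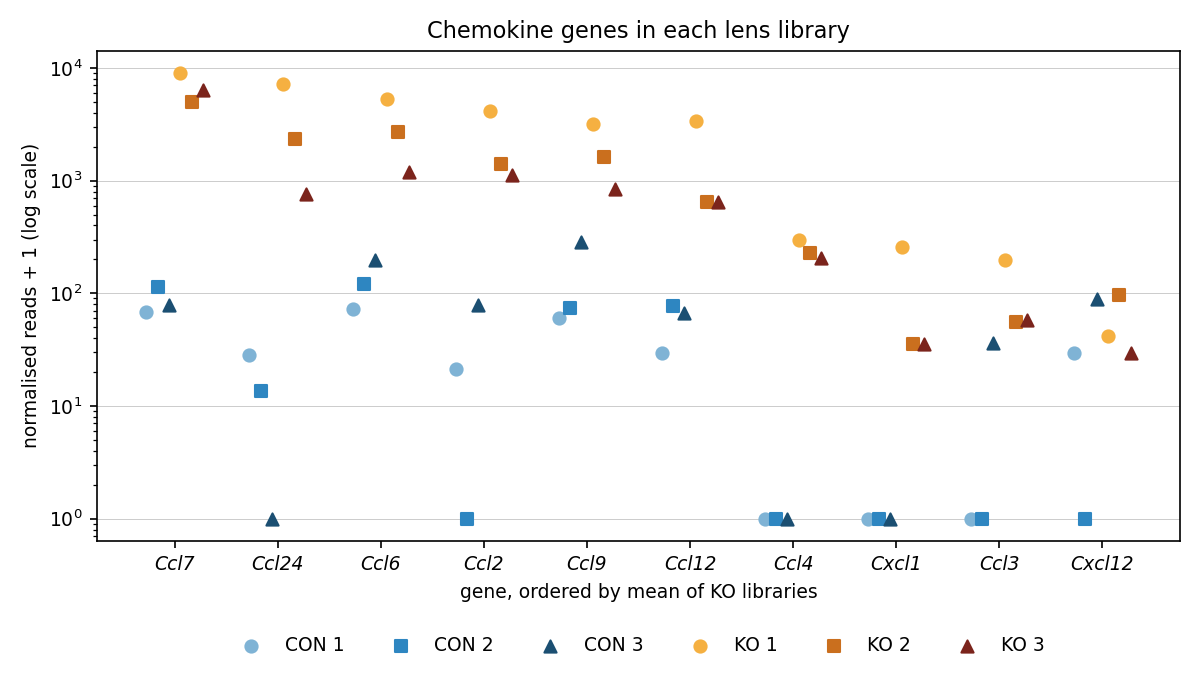
Normalised reads plus 1 (log axis) of the 10 chemokine genes in each of 3 CON libraries (blue) and 3 KO libraries (orange to brown), 1 point per library. In every gene but Cxcl12 all KO points lie above all CON points, and KO 1 is the highest KO point in 9 genes.

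Among the monocyte chemoattractants, Ccl7 had the most reads of all 10 genes. Ccl2, Ccl7 and Ccl12 encode ligands of the receptor CCR2, which draws monocytes out of the blood, and CCL7 also binds receptors shared with other CC ligands. The 3 genes are neighbours on chromosome 11, in the order Ccl2, Ccl7, Ccl11, Ccl12, Ccl8 and Ccl1 in the RefSeq annotation. Ccl7 had 67.6, 113 and 78.2 normalised reads across CON and 9015, 4993 and 6367 in the KO libraries. All KO libraries were far above all CON libraries, and the KO libraries differed among themselves by 1.81-fold at most. The log2 difference was 4.88 (SE 0.25, adjusted p = 3.37e-05 with limma), the fifth largest of the genes that passed the filter, and the ratio of the group means was 78.7. The call was kept with each library left out (adjusted p up to 0.040).

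Ccl2 had 20.1, 0 and 78.2 normalised reads in the CON libraries, from 19, 0 and 53 reads. In KO 1 to 3 it had 4143, 1399 and 1115. The groups did not overlap, and KO 1 was 2.96 times KO 2 (log2 difference 3.85, SE 0.48, adjusted p = 0.00387 with limma). Ccl12 had 28.5, 75.5 and 66.4 normalised reads across CON and 3365, 642 and 651 in the KO libraries. KO 1 stood 5.24 times above KO 2, whereas KO 2 and KO 3 were close (log2 difference 2.79, SE 0.52, adjusted p = 0.0167 with limma). The calls of Ccl2 and Ccl12 were lost when any library other than KO 1 was left out (adjusted p = 0.0502 to 0.098 for Ccl2 and 0.0965 to 0.149 for Ccl12), and that of Ccl12 in a voom fit to the recovered reads (0.0986).

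The other genes of this stretch of chromosome 11 were less abundant. Ccl8, which encodes a further CC ligand, had no reads in any CON library and 145, 165 and 49.7 normalised reads in the KO libraries (at least 76.0-fold higher, with 3 reads over the CON libraries together as the floor; adjusted p = 0.0106 with limma over every gene with a read). Ccl11, the gene of the eosinophil ligand eotaxin, had no reads in CON and 13.2, 6.01 and 5.29 normalised reads in KO (adjusted p = 0.0675 with limma over every gene with a read). Ccl1 had no reads in any library. Ccl8 and Ccl11 were named after their values were seen, as neighbours of Ccl2, Ccl7 and Ccl12.

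Ccl6 and Ccl9 are rodent CC genes, both expressed by macrophages and other myeloid cells and related to CCL15 and CCL23 of other mammals, which act through CCR1. Ccl6 had 71.8, 120 and 195 normalised reads across CON and 5342, 2720 and 1200 in the KO libraries. The KO libraries spanned a 4.45-fold range, with KO 1 the highest and KO 3 the lowest and still above every control (log2 difference 3.36, SE 0.44, adjusted p = 0.00473 with limma). Ccl9 had 59.1, 72.4 and 286 normalised reads across CON and 3195, 1626 and 835 in the KO libraries. CON 3 was above the other controls, and KO 3 was still above it (log2 difference 2.77, SE 0.46, adjusted p = 0.0108 with limma). Ccl6 and Ccl9 are adjacent genes on chromosome 11, and the ratio of their normalised reads was 1.67, 1.67 and 1.44 in the KO libraries. The call of Ccl9 was lost with any 1 library left out (adjusted p = 0.0603 to 0.181), and that of Ccl6 without CON 1 (0.0542), CON 2 (0.0582), CON 3 (0.0612) or KO 2 (0.131).

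Ccl3 and Ccl4 encode MIP-1 alpha and MIP-1 beta, CC ligands that activated macrophages release, and CCL3 binds CCR1. Ccl4 had no reads in any CON library and 296, 225 and 206 normalised reads in the KO libraries. It was at least 157-fold higher in KO with a floor of 3 reads over the CON libraries together, and at least 78.3-fold with 6 reads. Its KO libraries were the closest of all 10 genes, with a coefficient of variation of 19.5%, and it was called higher (adjusted p = 0.00232 with limma), also with each library left out (up to 0.0468). All CON values of Ccl4 were the lowest value of the scale. Leaving out a CON library therefore could not change its difference (2.15), and its call in those fits is no sign of stability. Ccl3 had 0, 0 and 35.4 normalised reads across CON and 195, 54.7 and 57.1 in the KO libraries. CON 3 was near KO 2 and KO 3, and the difference did not pass when every gene with a read was tested (1.09, SE 0.34, adjusted p = 0.0890 with limma). The annotated spans of Ccl3 and Ccl4 overlap in RefSeq, and whether reads were counted by strand is not given in the sources used here. Reads in any shared part of this pair are therefore not safely told apart. In GENCODE M21, the transcripts of neither gene shared a stretch of 31 bases with another gene.

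Ccl24 encodes eotaxin-2, a CC ligand of CCR3, the main chemokine receptor of eosinophils, and is made by alternatively activated macrophages. It had 27.4, 12.6 and 0 normalised reads in the CON libraries, from 26, 4 and 0 reads. In KO 1 to 3 it had 7190, 2348 and 754. The groups were far apart, and the KO libraries spanned 9.54-fold, the widest range of the 10 genes (log2 difference 4.39, SE 0.62, adjusted p = 0.00614 with limma). The call was lost without CON 1 (adjusted p = 0.0564), CON 2 (0.0655), CON 3 (0.0803) or KO 2 (0.150), and in a voom fit to the recovered reads (0.091). Ccl26, its neighbour on chromosome 5, had no reads in any library. Ccr3 had reads in CON 1 and in no other library (14.8 normalised reads).

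Cxcl1 encodes a neutrophil attractant that binds CXCR2, and Cxcl12 a homeostatic ligand of CXCR4 and ACKR3 that stromal cells make. Cxcl1 had no reads in any CON library and 256, 34.3 and 34.4 normalised reads in the KO libraries. KO 1 was 7.46 times KO 2, and all KO libraries were above the 9.44 normalised reads that a count of 0 allows in CON 2. The pooled ratio of KO to CON was at least 69.3 (34.6 with a floor of 6 reads), and the difference stood just outside the threshold when every gene with a read was tested (log2 difference 1.32, SE 0.34, adjusted p = 0.0506 with limma). Cxcl12 had 28.5, 0 and 88.5 normalised reads across CON and 40.9, 95.6 and 28.5 in the KO libraries. The groups overlapped, with a log2 difference of 0.33 (SE 0.35, adjusted p = 0.634 with limma over every gene with a read), and a difference was not detectable at this depth.

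Promoter sequence was at hand in RefSeq (GRCm38.p6) for Ccl3, Ccl6, Ccl9, Ccl12, Cxcl1 and Cxcl12. The windows below hold the 250 bases before the annotated start of 5 of these genes: Ccl6 and Ccl9, adjacent genes whose read ratio was similar in all KO libraries, Ccl12 and Cxcl1, whose KO 1 values stood highest above the other KO libraries, and Cxcl12, whose groups overlapped. Capitals mark matches, on either strand, to the kappa B motif, the AP-1 motif TGANTCA, the STAT motif (TTC and GAA with any 4 bases between them) and the TATA motif TATAAA. The windows are Ccl6 at chr11:83593088-83593337 (minus strand), Ccl9 at chr11:83578637-83578886 (minus strand), Ccl12 at chr11:82101595-82101844 (plus strand), Cxcl1 at chr5:90890995-90891244 (plus strand) and Cxcl12 at chr6:117168285-117168534 (plus strand).
Ccl6: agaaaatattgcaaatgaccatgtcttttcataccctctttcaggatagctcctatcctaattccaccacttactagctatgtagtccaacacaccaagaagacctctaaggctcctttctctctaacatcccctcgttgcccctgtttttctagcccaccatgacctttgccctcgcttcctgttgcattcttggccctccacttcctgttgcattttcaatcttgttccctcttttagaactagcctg
Ccl9: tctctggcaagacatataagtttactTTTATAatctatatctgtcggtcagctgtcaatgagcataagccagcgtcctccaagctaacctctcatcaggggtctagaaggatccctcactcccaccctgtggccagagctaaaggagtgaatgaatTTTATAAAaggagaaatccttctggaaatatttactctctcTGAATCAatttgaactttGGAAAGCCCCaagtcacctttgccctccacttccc
Ccl12: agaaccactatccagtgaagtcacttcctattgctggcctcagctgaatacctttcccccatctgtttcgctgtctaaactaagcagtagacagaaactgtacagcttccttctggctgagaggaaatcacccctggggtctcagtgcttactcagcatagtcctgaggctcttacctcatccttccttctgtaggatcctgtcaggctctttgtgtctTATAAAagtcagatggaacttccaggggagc
Cxcl1: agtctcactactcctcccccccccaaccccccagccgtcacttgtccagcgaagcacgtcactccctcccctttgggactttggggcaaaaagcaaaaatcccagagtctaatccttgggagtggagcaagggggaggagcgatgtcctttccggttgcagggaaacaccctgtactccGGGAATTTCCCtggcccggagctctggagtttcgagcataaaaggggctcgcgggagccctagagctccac
Cxcl12: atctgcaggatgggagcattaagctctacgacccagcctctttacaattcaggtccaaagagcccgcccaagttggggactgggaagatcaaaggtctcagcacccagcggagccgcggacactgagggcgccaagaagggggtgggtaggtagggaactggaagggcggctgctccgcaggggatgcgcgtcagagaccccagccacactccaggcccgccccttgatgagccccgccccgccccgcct

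The Cxcl1 window held a kappa B match that reads on both strands, which begins 71 bases before the start, and the Ccl9 window held one that begins 35 bases before it, with an AP-1 match 53 bases before. A kappa B match stood in 2 of the 6 windows of the listed genes and in 7.25% of 32817 RefSeq windows of the same length, and an AP-1 match in 1 of 6 and in 6.75%. TATA letters stood in the Ccl9 and Ccl12 windows (2 of 6, against 12.4% of all windows), where Ccl12 had them 31 bases before the start. The Ccl9 window held 3 TATA matches, 2 of which overlap. No window of the 6 held the STAT letters, which 5.85% of all windows hold. Such matches describe letters and not binding. Stretches of 31 bases shared with the transcripts of another gene in GENCODE M21 were absent for Ccl2, Ccl3, Ccl4, Ccl7, Ccl12 and Cxcl1 and made up 3.98% of those of Ccl9, 1.02% of Ccl6, 0.11% of Cxcl12 and 0.077% of Ccl24.

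Compared per length of annotated exons, Ccl7 led the listed genes in KO lenses with 8479 ± 2552 (SD, n = 3) normalised reads per kilobase. Ccl12 (2891 ± 2922), Ccl2 (2729 ± 2057), Ccl24 (2649 ± 2588) and Ccl6 (2144 ± 1455) followed and did not differ beyond their spread. Ccl9 (627 ± 399.6), Ccl4 (367 ± 71.7), Ccl3 (134 ± 105) and Cxcl1 (113 ± 134) came next, and Cxcl12 was the lowest (7.68 ± 4.98). In CON lenses Ccl7 (108 ± 29.9) and Ccl12 (106 ± 46.4) were the highest and were level within their spread.

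The make-up of the ligand reads differed between the groups. Of the length-corrected reads of 38 chemokine ligand genes, the 10 listed genes took 13.9% ± 1.36 (SD, n = 3) in CON and 76.4% ± 6.37 in KO. Ccl7 took 4.30, 4.68 and 2.49% in the CON libraries and 27.1, 31.2 and 49.3% in the KO libraries. Pf4, the gene of platelet factor 4, was the largest part in CON (45.1% ± 6.02) and held 15.5% ± 5.92 in KO. Ccl25, Ccl27a and Cx3cl1 held smaller shares in KO, with 14.9% ± 3.19, 13.6% ± 1.55 and 7.55% ± 7.02 in CON and 1.62% ± 0.639, 0.899% ± 0.504 and 0.471% ± 0.216 in KO. Their own levels did not pass the test (log2 differences -0.15, -0.76 and -0.52, adjusted p = 0.764, 0.0934 and 0.317 with limma), and close copies of Ccl27a exist in the mouse genome, so its reads are not safely separate.

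**Figure D2:**
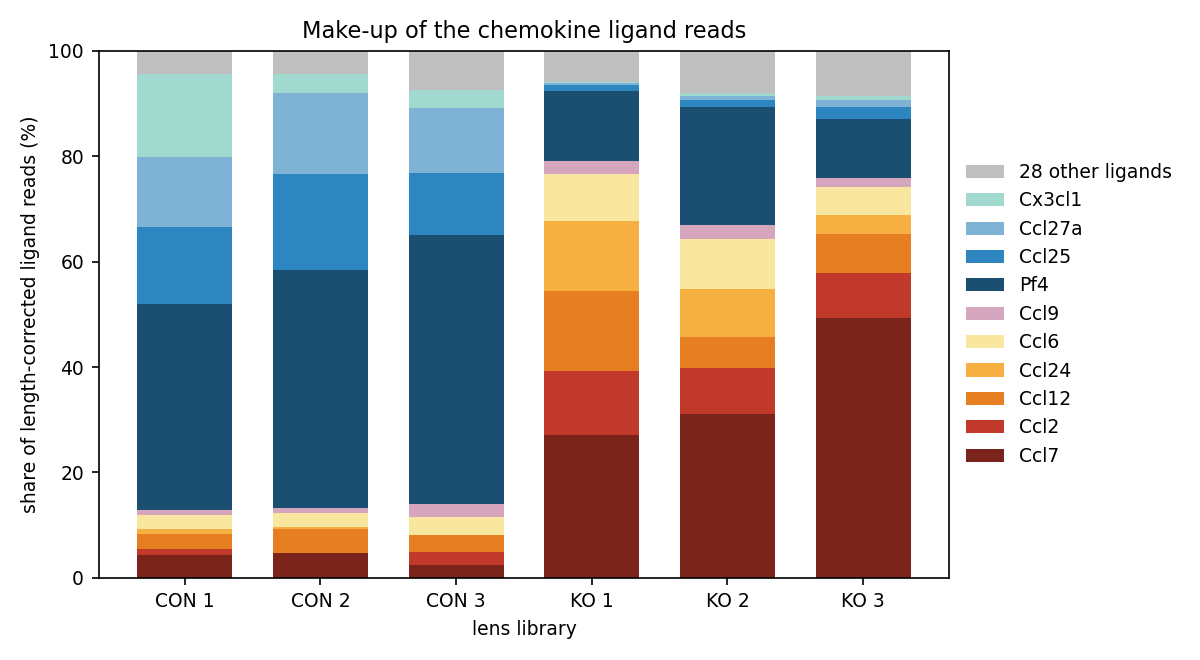
Share (percent) of each chemokine ligand in the length-corrected reads of 38 ligand genes, 1 bar per library, with 10 genes drawn apart and the other 28 in grey. Ccl7, Ccl2, Ccl12, Ccl24, Ccl6 and Ccl9 (warm colours) are a minor part of the CON bars, and the listed genes together average 76.4% of the KO bars.

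Other ligands went the same way in part. Of 28 further chemokine genes, 18 had reads, 6 passed the filter, and 3 of these were called higher and none lower, beside 6.91% and 4.39% of all tested genes. Of the 3, Cxcl14 and Ppbp passed the filter only through their KO libraries. Over every gene with a read, 5 of the 18 were called higher and none lower, beside 4.66% and 1.87% of all such genes. Cxcl14, which encodes a ligand of epithelial tissues, had 38.0, 91.3 and 19.2 normalised reads across CON and 719, 834 and 1052 in KO. Its log2 difference was 2.52 (SE 0.29, adjusted p = 0.00262 with limma over every gene with a read). In contrast to the listed genes, its highest KO library was KO 3. Ppbp (1.56, adjusted p = 0.0228) and Pf4 (1.31, adjusted p = 0.0494), 2 CXC genes of platelets and megakaryocytes, were the others, and both calls were lost in limma over every gene with a read (0.0540 and 0.0926). Cxcl16, the gene of a membrane-bound ligand, was named after its values were seen. It had no reads in CON and 251, 167 and 197 normalised reads in the KO libraries (at least 133-fold higher). Of the ligand genes, 10 had no reads in any library, among them Ccl22, Cxcl9 and Cxcl13.

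Most chemokine receptor genes had too few reads to be tested under the filter. Of 23 chemokine receptor genes, 20 had reads, 4 passed the filter and 1 was called higher, beside 6.91% of all tested genes. Over every gene with a read, 2 of the 20 were, Ackr3 and Ackr4, beside 4.66% of all such genes. Ackr4, an atypical receptor named after its values were seen, had 0, 0 and 11.8 normalised reads across CON and 85.8, 61.9 and 39.1 in KO (adjusted p = 0.0333 with limma over every gene with a read). The gene called under the filter was Ackr3, an atypical receptor that takes up CXCL12, with 406, 78.7 and 181 normalised reads across CON and 978, 704 and 977 in the KO libraries (log2 difference 1.58, SE 0.33, adjusted p = 0.0108 with limma). Its call was lost with a term for library name style (0.117). Ccr1, a receptor of CCL3, CCL7 and CCL9, had log2 values of 8.26, 7.94 and 8.04 in CON and 10.67, 9.48 and 8.38 in KO, in the KO order of Ccl6 and Ccl9, and was not called (log2 difference 1.43, SE 0.46, adjusted p = 0.0675 with limma). Ccr2, the receptor of CCL2, CCL7 and CCL12, had 0, 0 and 8.85 normalised reads across CON and 0, 146 and 11.6 in the KO libraries. It was thus without reads in KO 1, the library with the most Ccl2, Ccl7 and Ccl12. Cxcr2, the receptor of CXCL1, had no reads in CON and 47.8, 39.1 and 0 in the KO libraries. Ccr2, Ccr3 and Cxcr2 were named as receptors of the listed ligands.

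**Figure D3:**
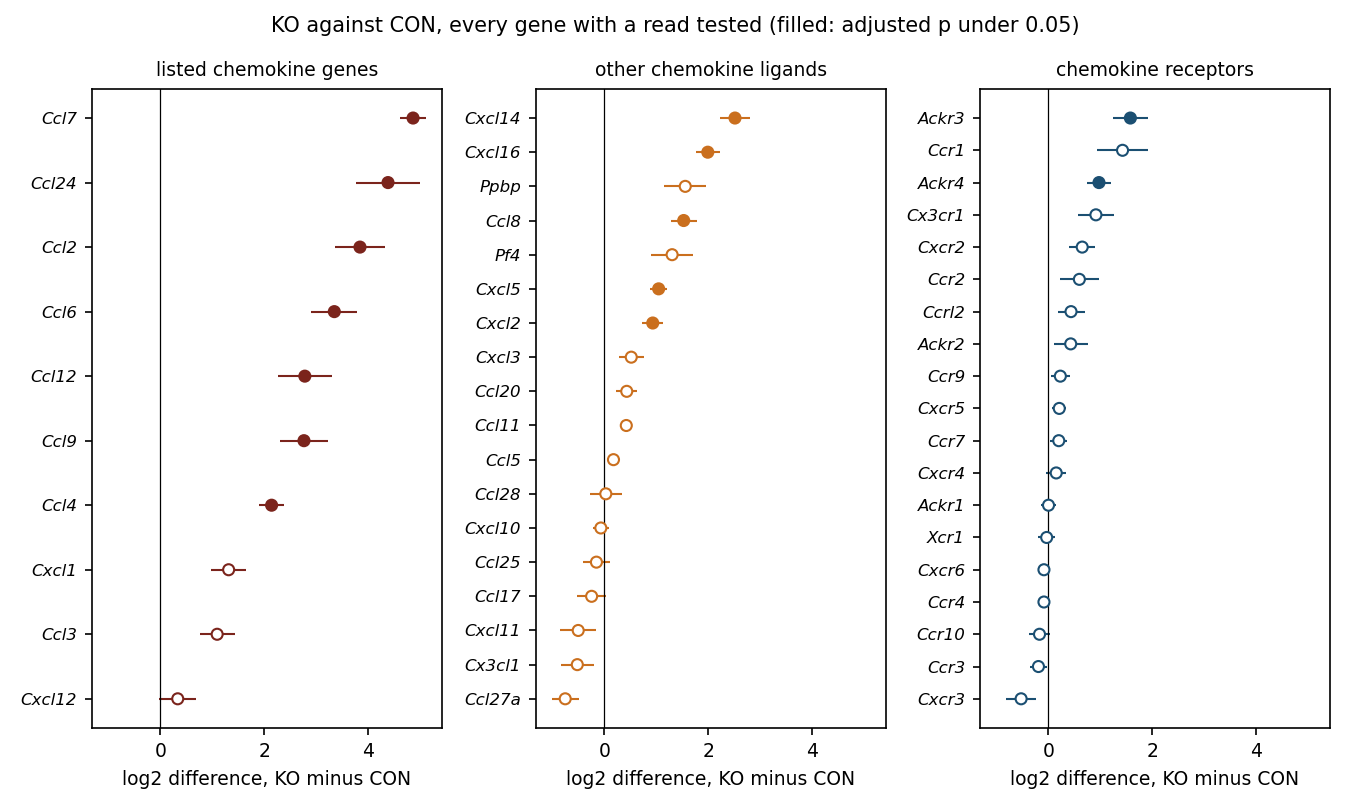
Log2 difference KO minus CON with its standard error (bars) for the listed chemokine genes, other ligands with reads and all but 1 of the receptors with reads, from the limma test of every gene with a read, with filled points at an adjusted p under 0.05. Among the listed genes 7 are filled, and Cxcl1, Ccl3 and Cxcl12 are open.

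Genes known to drive chemokine transcription rose in part. Of 34 listed cytokines, receptors and transcription factors, 18 were tested, 10 were called higher and none lower, beside 6.91% and 4.39% of all tested genes (median log2 difference 1.08, beside 0.03). Over every gene with a read, 8 of 31 were called higher, beside 4.66% of all such genes. Fos and Stat6 passed the filter only through their KO libraries. Fos, a subunit of AP-1, went from 0, 120 and 38.3 normalised reads in CON to 2137, 1817 and 3581 in KO. Its log2 difference was 4.0 (SE 0.40, adjusted p = 0.00187 with limma over every gene with a read). Il33, the gene of an alarmin cytokine, had 409.6, 330 and 1379 in CON and 4777, 4689 and 4560 in KO. Its difference was 2.67 (SE 0.36, adjusted p = 0.00111 with limma under the filter). Il4, which drives alternative activation of macrophages, had 97.1, 264 and 258 in CON and 1319, 875 and 1891 in KO. Its difference was 2.07 (SE 0.32, adjusted p = 0.00216 with limma under the filter). Junb (2.12) was higher as well, with Tnfrsf1a, Stat3, Stat6, Csf1, Nfkbia and Myd88. In Fos, Junb and Il4 the highest KO library was KO 3, not KO 1. Tnf, the classical inducer of Ccl2 and Cxcl1, had 19 reads in KO 3 and none in the other libraries, and Ifng, Il13 and Irf4 had none in any library.

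Among 17 genes that process or bind chemokines or relay their signals, 12 were tested, 4 were called higher and none lower, beside 6.91% and 4.39% of all tested genes. They were Sdc4, a heparan sulfate carrier (1.05, adjusted p = 0.0106 with limma), Mmp2, a protease that trims CCL7 and CXCL12 (1.30, adjusted p = 0.0121), and the G protein regulators Rgs2 (1.02) and Rgs16 (0.99, adjusted p = 0.0387 and 0.0466). The list's median difference was 0.02. The calls of Rgs2 and Rgs16 were lost over every gene with a read (adjusted p = 0.0681 and 0.0888), and that of Mmp2 without KO 2 (0.0808). The call of Mmp2 was also lost with a term for library name style (0.188) and in a voom fit to the recovered reads (0.0567).

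KO 1 carried the most chemokine reads. It was the highest KO library in 9 of the 10 listed genes, and the highest in 41.7% of all tested genes and in 37.6% of the genes called higher. KO 3 was the lowest in 6 and KO 2 in 4. The coefficient of variation among KO libraries ran from 19.5% (Ccl4) and 30.1% (Ccl7) to 101% (Ccl12) and 118% (Cxcl1), beside a median of 21.9% over all genes called higher. Relative levels therefore differed between KO libraries: Ccl24 had 0.798, 0.470 and 0.118 reads per read of Ccl7 in the KO libraries.

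Macrophage markers moved with the chemokine genes. Of 24 listed macrophage genes, all had reads, 22 were tested, 16 were called higher and none lower, beside 6.91% and 4.39% of all tested genes (median log2 difference 1.49). Adgre1 and Cd14 were among the called genes that passed the filter only through their KO libraries. When every gene with a read was tested, 8 of the 24 were called higher, beside 4.66% of all. Their summed normalised reads ran from 3786 to 6108 in CON and were 37173, 17779 and 10550 in the KO libraries. This is the KO order of Ccl2, Ccl4, Ccl6, Ccl9 and Ccl24. The order was not particular to macrophage genes. Endothelial and pericyte genes, none of them called, had it too, with summed normalised reads of 6355, 3011 and 1630 in the KO libraries. The sums of monocyte, pigment cell, red cell, and eosinophil and mast cell genes shared it. For red cell genes the KO sums were 3631, 3387 and 2254, below the CON sums of 4414 to 6826. Of 4 red cell genes tested, 1 was called lower, beside 4.39% of all tested genes, and 0 over every gene with a read. The sums of neutrophil, lymphocyte, mesenchyme, retinal and lens genes had other orders. Cd68, a lysosomal macrophage marker, rose by 2.37 (SE 0.32, adjusted p = 0.00103 with limma), C1qa by 2.12, C1qb by 2.13 and Tyrobp by 1.75. The other 6 tested macrophage genes were not called. C1qc, Aif1 and Laptm5 were among them, named after their values were seen, and their groups overlapped. Their differences were 0.29, 0.79 and 0.78 (adjusted p = 0.644, 0.162 and 0.139 with limma). The summed reads of the 10 chemokine genes were 303, 393 and 827 in the CON libraries and 33037, 14137 and 11247 in the KO libraries. Against the mean of CON, the chemokine sum was higher by 6.02, 4.80 and 4.47 log2 units in the KO libraries, and the macrophage sum by 2.94, 1.88 and 1.12. The part of the macrophage genes in the chemokine result was not tested. In bulk lens RNA, more cells of a type and more RNA per cell cannot be told apart.

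Monocyte markers followed in part, with Chil3 (2.38), Vcan (1.75) and Fn1 (1.22) higher, the 3 tested of 7, beside 6.91% of all tested genes. Over every gene with a read, 3 of the 7 were called higher, beside 4.66%. Chil3 passed the filter only through its KO libraries. The call of Vcan was lost with a term for library name style (adjusted p = 0.0548 with limma). Chil3, Vcan and Fn1 are made by other cells as well. The call of Fn1 (adjusted p = 0.0484 with limma) was lost when every gene with a read was tested (0.0930). Ly6c2, a marker of inflammatory monocytes, had no reads in CON and 36.9, 25.9 and 0 normalised reads in the KO libraries. Neutrophil markers gave 2 tested genes of 11 and no call, and Ly6g, Mpo and Elane had no reads in any library. Of the 8 neutrophil genes with reads, 3 had every KO library above every CON library, beside 15.3% of all genes with a read. The summed reads of the neutrophil list spanned 116 to 150 in CON and 222 to 445 in KO. Of 11 eosinophil and mast cell genes, 5 had no reads in any library, among them Prg2, and of 10 lymphocyte genes 5 had none. Of all 27179 genes, 7954 had none. Cpa3, a mast cell gene named after its values were seen, had 0, 0 and 11.8 normalised reads in CON. In KO it had 240, 61.9 and 3.17, so that the groups overlapped. Of 10 tested endothelial and pericyte genes none was called, and their summed reads spanned 3185 to 4088 in CON and 1630 to 6355 in KO, with KO 1 the highest. Of 10 mesenchyme genes, 2 were tested and Pdgfra fell by 1.40 (adjusted p = 0.00616 with limma, 0.0919 with a term for library name style), while the median difference of the 10 over every gene with a read was -0.003. Col1a1 of the same list, named after its values were seen, had 23.2, 0 and 0 normalised reads across CON and 43.2, 90.8 and 81.9 in KO (adjusted p = 0.0535 with limma over every gene with a read). The retinal gene Six6 rose by 1.78, and the pigment cell genes Rlbp1 and Tyrp1 by 1.00 and 0.92 (adjusted p = 0.0155 and 0.0398). The call of Rlbp1 was lost with any single KO library left out (the largest adjusted p was 0.101), and that of Tyrp1 without CON 2, KO 1 or KO 2 (0.172 at most) and over every gene with a read (0.0638). The parts of these cell types in the chemokine result were not tested.

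**Figure D4:**
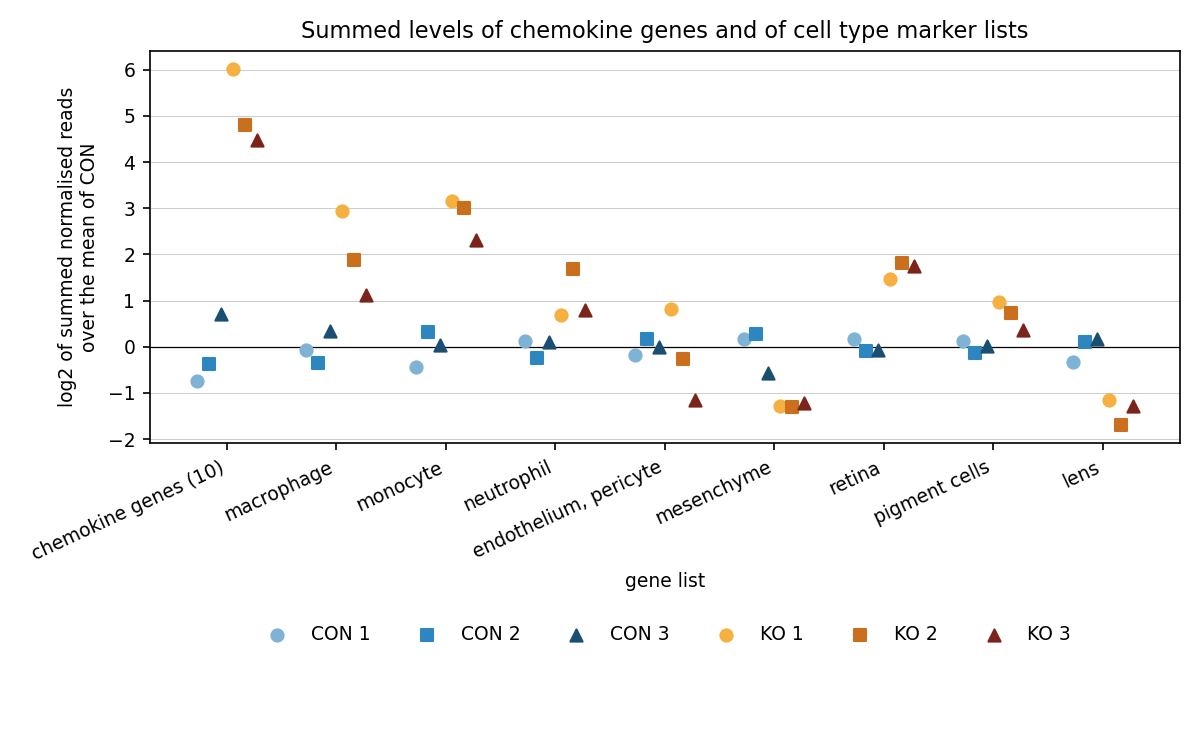
Log2 of the summed normalised reads of the 10 chemokine genes and of 8 marker lists, each over its mean in CON, with 1 point per library. The chemokine sum lies between 4.47 and 6.02 in KO, the macrophage sum between 1.12 and 2.94, and the lens and mesenchyme sums lie below 0 in all KO libraries.

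Genes whose log2 values lay closest to those of each tested chemokine gene over the 6 libraries were found by the root mean square distance, with each gene centred on its mean in CON. Ccl7 lay closest to Cdkn1a, a cell cycle inhibitor (distance 0.28 log2 units), then Wdr72 (0.49) and Car2 (0.56). Ccl24 lay closest to Spp1, the osteopontin gene (0.51), and Mgl2, a macrophage lectin (0.59), and Ccl2 to Emp1 (0.41) and Mgl2 (0.44). Ccl6 and Ccl12 shared Cd74, the invariant chain gene (0.34 and 0.44), and Serpina3g (0.44 and 0.27). Ccl9 lay closest to Ms4a6d (0.30), Bcl2a1b (0.35) and Plk2 (0.39), Ccl12 also to Ch25h (0.40), and Ccl4 to Cd300ld (0.11), Col11a1 (0.12) and Rnd3 (0.17). Listed genes came in the last place of the nearest 3 in 3 cases: Ccl6 for Ccl2 (0.53), Ccl9 for Ccl6 (0.47) and Ccl2 for Ccl24 (0.78). The group difference shapes these distances, and no test was made on them.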

How the data were processed

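The 6 lens libraries were made with a low-input RNA kit, per the labels' protocols. Per the submitters' processing notes, Trimmomatic, HISAT2 2.1.0, mm9, featureCounts 1.6.4 and DESeq2 (version given as 2.11.0.6) were used. The deposited values are log2 values after a variance-stabilising transformation by the authors. Inverting it gave whole reads for 100.0% of values (within 0.1), and the size factors recovered equalled the median of ratios. Identifiers were named through RefSeq (GRCm38.p6), which matched 25275 of 27179. Its build differs from mm9, so it gave names, gene order and promoter letters only. Exon lengths and transcripts came from GENCODE M21.

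The 2 genotypes were tested against each other with limma (version 3.58.1, R version 4.3.3, trended eBayes, no covariate), two-sided, over genes whose mean was at least 1 log2 unit above the lowest value, with Benjamini-Hochberg adjustment. The fit was also run on simulated data, with the same relative spread beyond counting error for every gene. The KO spread of most listed genes was wider, so no conclusion about them is drawn from that run. Genes outside the 10 were named by rule: up to 4 genes of smallest p per list, the called genes of lists with 5 or fewer calls, and the 3 closest patterns per tested chemokine gene. Genes of the sex chromosomes were left out of this naming, and some genes of the lists are not reported here. The members, lists and rules were chosen with earlier results of these data known. Alternatives were other filters, scalings, pseudocounts of 1 and 10 on log2 normalised reads, voom, variance models, a block, a term for library name style (the names of KO 2 and KO 3 are built in another way than the other 4) and each library left out. A floor of 6 reads, and the alternatives over every gene with a read, were added after seeing the data. Residuals of libraries with equal replicate numbers correlated at -0.364, -0.128 and -0.14, and those with unequal numbers from -0.228 to 0.329. With 3 libraries per group, these correlations cannot show whether libraries were paired.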

Additional observations from a re-analysis of the deposited data

How the results depend on the processing

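The direction of the 7 chemokine genes that passed the filter was the same under every alternative run. Ccl2, Ccl4 and Ccl24 are among them only through their KO libraries, so the count of 7 called under the filter, also with the replicate block (7), is no sign of stability. It was 4 with voom, whether with the deposited size factors (4), total reads (4) or non-crystallin reads (4), where Ccl2, Ccl12 and Ccl24 lost their calls (over every gene with a read, Ccl2 kept it with voom, adjusted p = 0.038); the cause was not tested. It was 2 with a filter of 3 units, which leaves Ccl6 and Ccl7 tested. The count called lower was 0 throughout. Over every gene with a read and with 1 library left out, the count was 2 without CON 1, CON 2, CON 3 or KO 2 (Ccl4 and Ccl7), 4 without KO 3 and 7 without KO 1 (with Cxcl1 and without Ccl9). The difference of Ccl4, which had no reads in CON, could not change when a CON library was left out. Over every gene with a read, Cxcl1 passed with the replicate block (adjusted p = 0.0280), without KO 1 (0.0223) and with voom (0.0151), and Ccl3 with voom on total reads (0.0201). Of all genes tested, 6.91% were called higher and 4.39% lower. The shares were 4.66% and 1.87% over every gene with a read, 6.79% and 9.22% of 5010 genes with a filter of 3 units, 1.78% and 0.34% with a term for library name style, 10.6% and 8.14% with library weights, 3.67% and 4.12% with voom, 28.9% and 0.741% with voom on total reads, 4.98% and 2.55% with voom on non-crystallin reads, and 5.28% and 2.69% with the replicate block. With 1 library left out they ran from 3.11% (without KO 2) to 9.46% (without CON 1) higher and from 1.53% to 7.48% lower, with the same libraries at the ends. The shallowest library, CON 2, limits what a count of 0 shows there.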

Other observations

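Further genes had no reads in any CON library and reads in all KO libraries. They were chosen after their values were seen. Il1a, the gene of an interleukin that is released by damaged cells, had 208, 64.3 and 77.2 normalised reads in the KO libraries (at least 75.3-fold higher with a floor of 3 reads over the CON libraries together, adjusted p = 0.0126 with limma over every gene with a read). Mmp12, the macrophage elastase gene, had 357, 149.7 and 37.0 in the KO libraries (at least 115-fold higher), and Cxcl5, a neutrophil attractant gene next to Ppbp, had 44.3, 61.9 and 44.4 (at least 32.3-fold higher). Cxcl2, the neighbour of Cxcl1, had 68.5, 12.6 and 49.7 (at least 28.6-fold higher).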
